A study of Mus musculus with 26 samples.

Results

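The 6 genes Slco2b1, Gpx3, Ch25h, Pparg, Eef1a2 and Vsig4 are grouped here under the label of macrophage genes silenced by RANKL. These genes were picked by name for their array intensity in wild type (WT) mouse macrophages, which was far lower after 1 day of RANKL than without it. They are read by 9 probes, 3 of them for Eef1a2, 2 for Pparg and 1 for each other gene (numbered by mean intensity over all arrays, with probe 1 the brightest), out of 25697 probes in all and out of 7244 probes that carry a gene name in the deposited tables (5787 named genes). The day 1 intensities chose these genes, so they are given as a description and without a test. The members were tested only on the 16 arrays of day 3, which are other arrays from a separately normalised experiment.

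The study compared macrophages with and without Cox2 (cyclooxygenase-2, an enzyme of prostaglandin synthesis) under RANKL, the cytokine that turns macrophages into bone-resorbing osteoclasts. Marrow cells from CD1 males, 2 months old and either Cox2 knockout (KO) or WT, were grown into macrophages in 100 ng/ml of M-CSF, the survival factor of this lineage. The day 1 groups were KO with M-CSF and RANKL (3 arrays), WT with M-CSF and RANKL (3 arrays) and WT with M-CSF alone (4 arrays), and M-CSF and RANKL were each at 30 ng/ml where both were given. The day 3 groups had 4 arrays each. In 2 of them KO cells had M-CSF and RANKL, with or without PGE2 (a prostaglandin made downstream of Cox2, at 1 µM). In the others WT cells had M-CSF and RANKL, with or without NS398 (an inhibitor of Cox2 activity, at 0.1 µM). Every group had M-CSF throughout, and below only the other treatments are named. Neither the amount of M-CSF in the cultures without RANKL nor the cytokine doses of day 3 are given in the sources used here. These sources also do not describe the knockout allele or say which arrays came from separate cultures or mice. The p-values therefore measure the spread between these samples, which may be technical. Ptgs2, the gene that encodes Cox2, was not analysed here, so the KO labels were not checked on it.

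Resident macrophages carry transporters, scavenging and complement receptors and lipid-handling enzymes that reflect their tissue, and the nuclear receptor PPARgamma is a regulator of many lipid genes in them. Osteoclasts arise from the same precursors when RANKL acts through NF-kappaB, AP-1 and NFATc1, and macrophage genes are known to be lowered on the way. PGE2 acts on macrophages through receptors that raise cyclic AMP, which works through transcription factors that bind cyclic AMP response elements.

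RefSeq promoters (GRCm38.p6, 250 bases before to 50 after a start site) were found for all 6 genes, 10 windows in all because Slco2b1 and Pparg have 3 start sites each. The windows of 3 genes are printed, 5′ to 3′ on the gene's strand. Slco2b1 had the largest day 1 difference. Gpx3 was the member whose brightest probe had KO arrays overlapping those of WT cells without RANKL. Ch25h had another pattern on day 3. For Slco2b1 the window of the most 5′ start site is chr7:99711291-99711590 on the minus strand, and the capitals mark a PU.1 core AGGAAGT and an AP-1 letter string TGANTCA that share 1 base. For Gpx3 the window is chr11:54902604-54902903 on the plus strand, and the capitals mark matches to CCAAT on the opposite strand. For Ch25h the window is chr19:34475099-34475398 on the minus strand, and the capitals mark the palindromic cyclic AMP response element TGACGTCA.
Slco2b1: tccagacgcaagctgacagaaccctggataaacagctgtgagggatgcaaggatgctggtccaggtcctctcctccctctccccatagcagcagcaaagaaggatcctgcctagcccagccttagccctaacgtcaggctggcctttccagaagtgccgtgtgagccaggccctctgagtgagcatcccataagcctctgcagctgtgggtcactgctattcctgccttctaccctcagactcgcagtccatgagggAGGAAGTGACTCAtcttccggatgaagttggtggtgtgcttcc
Gpx3: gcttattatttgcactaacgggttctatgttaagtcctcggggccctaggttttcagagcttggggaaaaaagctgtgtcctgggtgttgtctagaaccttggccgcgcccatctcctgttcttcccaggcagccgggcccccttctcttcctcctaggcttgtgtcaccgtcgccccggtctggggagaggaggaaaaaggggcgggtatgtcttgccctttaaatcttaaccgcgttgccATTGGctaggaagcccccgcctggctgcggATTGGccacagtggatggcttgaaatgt
Ch25h: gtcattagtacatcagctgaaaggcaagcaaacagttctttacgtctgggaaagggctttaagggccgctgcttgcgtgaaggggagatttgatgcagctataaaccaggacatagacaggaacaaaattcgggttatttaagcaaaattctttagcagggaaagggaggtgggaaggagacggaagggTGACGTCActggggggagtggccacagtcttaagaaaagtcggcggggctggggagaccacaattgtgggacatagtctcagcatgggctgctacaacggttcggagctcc
The Slco2b1 match to AGGAAGT covers bases 8 to 14 after the start site, and the match to TGANTCA covers bases 14 to 20. The Gpx3 matches lie 8 to 4 bases before the start site and at bases 23 to 27 after it. The Ch25h element lies 61 to 54 bases before the start site. On either strand, TGACGTCA is held by 1.79% of the 32851 promoters in the table, TGANTCA by 7.81%, AGGAAGT by 9.35% and CCAAT by 37.4%. Among the 10 member windows, TGACGTCA occurred only in that of Ch25h, and TGANTCA and AGGAAGT only in the printed window of Slco2b1. The other motifs searched were TATAAA (in windows of Ch25h and Pparg, and in 13.6% of all promoters), TCACNTG, the E-box form bound by MITF (in 1 window of Slco2b1, 16.6%), the consensus of NF-kappaB (in no member window, 1.63%) and the direct repeat bound by PPARgamma with RXR (in no member window, 0.0396%). These matches describe letters in the windows and show no binding.

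On day 1 the 6 genes were high or intermediate in KO macrophages with RANKL, low in WT macrophages with RANKL and high in WT macrophages with M-CSF alone. All 9 probes were lower with RANKL than without it in WT cells, and the arrays of the groups did not overlap for any of the 9. Of all 17211 probes fitted on day 1, 37.7% were called in this comparison and 20.7% were called lower, and 75.8% of the 7230 named probes were called in either direction. These shares stand beside a comparison that chose the genes and are not read further. The brightest probe of each gene had a median log2 difference of -4.16, against -0.018 over all probes. The word silenced holds for part of the genes: the brightest probes of Slco2b1, Pparg and Vsig4 were not above background in WT cells with RANKL, by the authors' detection p-value with a limit of 0.05, while those of Gpx3, Ch25h and Eef1a2 were still above it. Arrays of bulk RNA cannot tell fewer cells expressing a gene from less RNA per cell.

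**Figure D1:**
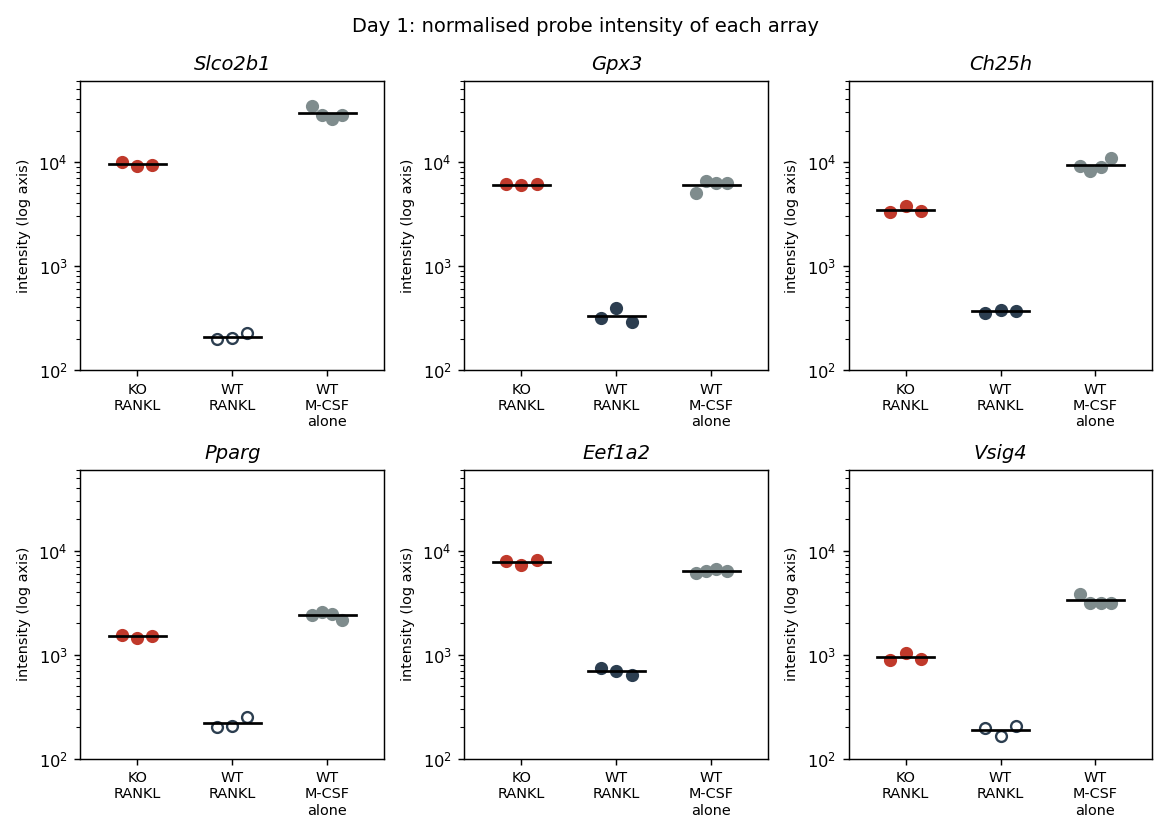
Normalised intensity (log axis) of the brightest probe of each gene on day 1, with 1 point per array, a line at the group mean, and open points where the group was not above background. From left to right the groups are KO with RANKL (3 arrays), WT with RANKL (3 arrays) and WT with M-CSF alone (4 arrays), and WT with RANKL is lowest for all 6 genes.

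Slco2b1 encodes an organic anion transporter of the cell membrane that carries sulfated steroids, and the gene lies at chr7:99657804-99711340. Its intensity was 9928, 9074 and 9376 in KO cells with RANKL, 197.5, 202.8 and 225.2 in WT cells with RANKL, and 34819, 28444, 25988 and 28579 in WT cells with M-CSF alone. The 3 groups were far apart, with KO cells between the WT groups. Because the WT group with RANKL was not above background by the authors' detection call, only bounds can be given: WT cells with RANKL were at least 140-fold lower than WT cells with M-CSF alone, and KO cells with RANKL were at least 45.3-fold higher than WT cells with RANKL. For such bounds an array of the dim group counts at its own intensity or at the lowest intensity of a probe above background, whichever is higher. KO cells with RANKL minus WT cells with M-CSF alone was -1.63 ± 0.10 on the log2 scale (SE, n = 3 and 4), at 9459 ± 432.8 against 29457 ± 3767 (SD).

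Vsig4 encodes a complement receptor of the immunoglobulin superfamily that marks resident macrophages such as Kupffer cells, and lies at chrX:96247201-96293438. It read 879.2, 1047 and 914.6 in KO cells with RANKL, 197.6, 166.9 and 204.8 in WT cells with RANKL (not above background), and 3871, 3106, 3118 and 3171 in WT cells with M-CSF alone. The groups did not overlap, and KO cells lay between the WT groups. WT cells with RANKL were at least 16.4-fold lower than WT cells with M-CSF alone, and KO cells with RANKL exceeded WT cells with RANKL at least 4.7-fold. KO cells with RANKL were 3.5-fold lower than WT cells with M-CSF alone.

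Gpx3 encodes a secreted glutathione peroxidase, a selenoprotein that reduces peroxides, and lies at chr11:54902854-54910387. It read 6105, 5999 and 6092 in KO cells with RANKL, 313.6, 397.7 and 288.2 in WT cells with RANKL, and 5045, 6596, 6242 and 6322 in WT cells with M-CSF alone. KO cells with RANKL overlapped WT cells with M-CSF alone, and both were far above WT cells with RANKL. The log2 difference was -4.19 ± 0.11 for RANKL in WT cells (SE, n = 3 and 4) and 4.20 ± 0.12 for KO against WT with RANKL (n = 3 each). It was 0.01 ± 0.11 for KO with RANKL against WT with M-CSF alone, given as a description.

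Ch25h encodes cholesterol 25-hydroxylase, which makes the oxysterol 25-hydroxycholesterol and is induced by interferon and by bacterial products, and lies at chr19:34473783-34475148. It read 3288, 3787 and 3371 in KO cells with RANKL, 352.9, 379.2 and 370.8 in WT cells with RANKL, and 9099, 8096, 8977 and 10876 in WT cells with M-CSF alone. The groups were separate, with KO cells between the WT groups. The log2 difference was -4.65 ± 0.10 for RANKL in WT cells, 3.24 ± 0.11 for KO against WT with RANKL, and -1.41 ± 0.10 for KO with RANKL against WT with M-CSF alone (SE, n = 3, 3 and 4 arrays in the groups).

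Pparg, the gene of the nuclear receptor PPARgamma, lies at chr6:115360879-115490404. Its brighter probe read 1554, 1455 and 1525 in KO cells with RANKL, 202.6, 205.3 and 252.3 in WT cells with RANKL (not above background), and 2424, 2566, 2467 and 2157 in WT cells with M-CSF alone. The groups did not overlap. WT cells with RANKL were at least 11-fold lower than WT cells with M-CSF alone, and KO cells with RANKL were at least 6.9-fold above WT cells with RANKL. KO with RANKL minus WT with M-CSF alone was -0.67 ± 0.10 on the log2 scale. The dimmer probe averaged 252.3 ± 38.75 in KO cells with RANKL, 188.3 ± 32.13 in WT cells with RANKL (not above background) and 383.3 ± 43.48 in WT cells with M-CSF alone (SD, n = 3, 3 and 4). It gave the same order with smaller steps, at least 1.83-fold for RANKL and at least 1.2-fold for KO against WT with RANKL.

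Eef1a2 encodes a form of the translation elongation factor that brings aminoacyl-tRNA to the ribosome and is known mainly from neurons and muscle, and lies at chr2:181141758-181157015. Its probe 1 read 7938, 7306 and 8050 in KO cells with RANKL, 749.6, 703.6 and 637.5 in WT cells with RANKL, and 6079, 6312, 6735 and 6436 in WT cells with M-CSF alone. Here the KO arrays lay above all arrays without RANKL. The log2 difference was -3.20 ± 0.09 for RANKL in WT cells, 3.48 ± 0.09 for KO against WT with RANKL, and 0.28 ± 0.09 for KO with RANKL against WT with M-CSF alone (SE). Probe 2 gave -3.22, 3.56 and 0.34 in the same comparisons. Probe 3, the dimmest, at 406 ± 139.8 in KO cells with RANKL, 228.1 ± 18.44 in WT cells with RANKL (not above background) and 467.6 ± 22.23 in WT cells with M-CSF alone (SD), gave an overlap of KO cells with WT cells without RANKL. The overlap rests on KO replicate 19 at 567.4, since the other KO arrays, at 320.3 and 330.5, lay below all arrays with M-CSF alone (451 to 499.7). KO with RANKL minus WT with M-CSF alone was -0.25 with that array and -0.52 without it.

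All 9 probes were higher in KO than in WT cells with RANKL, where 33.8% of the 17211 probes were called and 18.9% called higher, and 70.3% of named probes were called. Both comparisons use the same 3 WT arrays with RANKL, so their values stand side by side and one is no support for the other. On a log2 scale that sets WT with RANKL at 0% and WT with M-CSF alone at 100%, the KO group lay at 109% for Eef1a2 probe 1, 100% for Gpx3 and 69.8% for Ch25h. Slco2b1, Pparg and Vsig4 have no such position, since their level in WT with RANKL was not above background. Against WT cells with M-CSF alone, 5 probes lay lower in KO cells with RANKL with no overlap (those of Slco2b1, Ch25h, Pparg and Vsig4), probes 1 and 2 of Eef1a2 lay higher with no overlap, and those of Gpx3 and Eef1a2 probe 3 overlapped. In that comparison, which mixes genotype with RANKL, 15.7% of all probes were called, 7.24% higher and 8.47% lower, and 31.8% of named probes. These shares too are not read further. The deposited intensities keep a base level of about 200 in dim probes, which shrinks folds. With each array's 10th percentile subtracted, an alternative chosen after seeing the data, the RANKL difference became -5.51 for Ch25h, -5.21 for Gpx3 and -3.56 for Eef1a2 probe 1.

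On day 3, with RANKL in all groups, the 6 genes read at most 2328 on any array, and the KO and NS398 groups were mostly higher than WT with RANKL. Levels of the 2 days come from separately normalised experiments and were not compared. Where a detection p-value was given, on 8 of the 9 probes, it was under 0.05 in every day 3 group. In KO against WT cells, 3 of the 9 probes were called higher by limma (Slco2b1, Gpx3 and the brighter Pparg probe) and 0 lower, where 6.37% of 18961 probes were called and 3.43% called higher. Under NS398 against none in WT cells, 6 probes were called higher and 0 lower, where 5.94% of probes were called and 2.97% called higher. Under PGE2 against none in KO cells, 6 probes were called lower and 1 probe, that of Ch25h, was called higher, where 13.5% of all probes were called, 7.47% lower and 6.04% higher. The median log2 difference of the 6 brightest probes was 0.62 for KO, 0.82 for NS398 and -1.0 for PGE2, against 0.002, 0.001 and -0.001 over all probes. Among named probes alone, the called shares in either direction were 16.2% for KO, 15.1% for NS398 and 33.0% for PGE2. The KO and NS398 comparisons share the 4 WT arrays, and the KO arrays stand in the KO comparison with one sign and in the PGE2 comparison with the other.

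**Figure D2:**
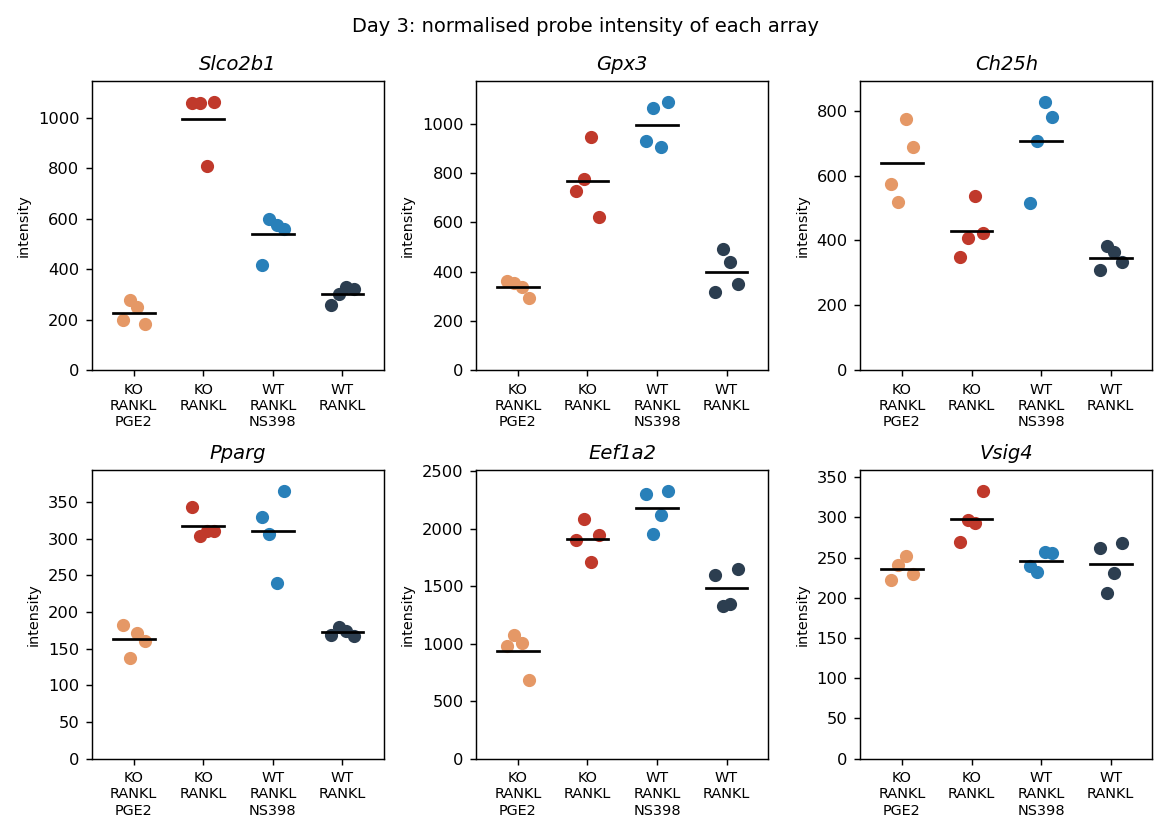
Normalised intensity (linear axis) of the brightest probe of each gene on day 3, with 1 point per array and a line at the mean of 4 arrays. From left to right the groups are KO with RANKL and PGE2, KO with RANKL, WT with RANKL and NS398, and WT with RANKL, and the arrays with PGE2 overlap those of WT with RANKL for 4 genes, lie below them for Eef1a2 and above them for Ch25h.

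Slco2b1 was again the member with the widest range. It read 197, 278.8, 249.2 and 182.4 in KO cells with PGE2, 1057, 1057, 810.2 and 1061 in KO cells without it, 415.3, 598.8, 575.2 and 559.8 in WT cells with NS398, and 257, 301, 330 and 322.7 in WT cells without it. KO cells without PGE2 stood above all other arrays, NS398 arrays came next, and the PGE2 arrays overlapped those of WT cells. KO exceeded WT by 1.72 ± 0.15 on the log2 scale, a 3.29-fold difference (limma adjusted p = 1.5e-06). NS398 raised it by 0.82 ± 0.15 in WT cells (limma adjusted p = 0.0023), and PGE2 minus none was -2.15 ± 0.15 in KO cells, 4.43-fold lower (limma adjusted p = 8.5e-08). KO exceeded NS398-treated WT cells by 0.90 ± 0.15 (limma adjusted p = 0.0052), a call that was lost after subtraction of the 10th percentile, where the difference was 1.09 (adjusted p = 0.18). KO with PGE2 and WT differed by -0.43, with a 95% interval of -0.74 to -0.12 and an adjusted p of 0.24 in limma.

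Vsig4 moved least. Its intensity was 221.8, 240.9, 252.4 and 230.1 in KO cells with PGE2, 269.4, 297.1, 293.3 and 332.6 in KO cells without it, 239, 232.1, 256.4 and 255.7 in WT cells with NS398, and 261.9, 205.7, 230.6 and 268.4 in WT cells without it. KO cells without PGE2 were above all other arrays by a small margin, and the other 3 groups overlapped. KO minus WT was 0.31 ± 0.09 on the log2 scale and just missed the limit (limma adjusted p = 0.0504), passing it without WT replicate 3 (0.027), WT replicate 6 (0.04) or KO replicate 7 (0.046). NS398 minus none was 0.03, with a 95% interval of -0.16 to 0.22. PGE2 minus none was -0.33 ± 0.09 in KO cells (limma adjusted p = 0.02), but the call was lost without PGE2 replicate 21r (0.0502), PGE2 replicate 24r (0.057) or KO replicate 8 (0.079), with differences of -0.28 to -0.32, and after the subtraction (-0.63, 0.066). Without the arrays whose labels carry a letter r, which leaves 1 PGE2 array, the difference was -0.31 (0.43).

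Gpx3 was the member with the largest NS398 difference. It read 363.7, 352.7, 335.4 and 294 in KO cells with PGE2, 728, 775.6, 947.6 and 622.8 in KO cells without it, 930.3, 1064, 908.3 and 1088 in WT cells with NS398, and 316.1, 492.3, 437.3 and 350.3 in WT cells without it. KO and NS398 arrays formed the high end and PGE2 and WT arrays the low end, with overlap within each pair. KO exceeded WT by 0.95 ± 0.14 on the log2 scale (limma adjusted p = 0.00042), and NS398 exceeded none by 1.34 ± 0.14, a 2.53-fold difference (limma adjusted p = 1.3e-05). PGE2 minus none was -1.18 ± 0.14 in KO cells (limma adjusted p = 3.5e-05). Neighbours in the order of levels did not pass the adjusted limit: KO minus NS398-treated WT was -0.39 (95% interval -0.69 to -0.09, limma adjusted p = 0.39) and KO with PGE2 minus WT was -0.23 (-0.53 to 0.07, adjusted p = 0.62).

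Ch25h did not follow the others. It read 573.3, 518.9, 774 and 687.8 in KO cells with PGE2, 349.2, 407.5, 537.8 and 422.6 in KO cells without it, 516.5, 708.6, 826.4 and 782 in WT cells with NS398, and 307.9, 383, 363.7 and 332.1 in WT cells without it. Both the PGE2 and the NS398 arrays were high, all of them above the WT arrays, and KO arrays without PGE2 overlapped WT. NS398 exceeded none by 1.01 ± 0.16 on the log2 scale in WT cells (limma adjusted p = 0.00076), while KO minus WT was 0.30 ± 0.16 with a 95% interval of -0.04 to 0.64 (limma adjusted p = 0.36). The direct difference, KO minus NS398-treated WT, was -0.72 ± 0.16 and just missed the limit (limma adjusted p = 0.053), passing it without NS398 replicate 13 (0.011) or KO replicate 12r (0.026). PGE2 raised Ch25h in KO cells by 0.57 ± 0.16 (limma adjusted p = 0.026), with overlapping groups. That call was lost without PGE2 replicate 23r (0.09) or 24r (0.081), without KO replicate 7 (0.092), 11 (0.064) or 8 (0.066), with differences of 0.47 to 0.57. It was also lost with the letter r as a term (0.40, adjusted p = 0.085), without the arrays marked r, which leaves 1 PGE2 array (0.41, adjusted p = 0.45), and after the subtraction (0.76, adjusted p = 0.062). KO with PGE2 exceeded WT by 0.87 ± 0.16 (limma adjusted p = 0.01), a call lost with r as a term (0.61, adjusted p = 0.074) and with the 1 PGE2 array not marked r (0.59, adjusted p = 0.39). The PGE2 and NS398 groups of this gene were not tested against each other.

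The brighter Pparg probe split the groups into pairs. It read 182.9, 137.7, 171.1 and 161.2 in KO cells with PGE2, 342.9, 304.1, 310.1 and 310.5 in KO cells without it, 329.9, 306.9, 239.2 and 365 in WT cells with NS398, and 168.5, 179.7, 173.9 and 167.7 in WT cells without it. KO and NS398 arrays were all above PGE2 and WT arrays. KO exceeded WT by 0.88 ± 0.11 on the log2 scale (limma adjusted p = 9.1e-05), NS398 exceeded none by 0.83 ± 0.11 (limma adjusted p = 0.00015), and PGE2 minus none was -0.96 ± 0.11 in KO cells (limma adjusted p = 2.5e-05). After the subtraction these became 2.01, 1.91 and -2.51. Within the pairs, KO minus NS398-treated WT was 0.05 (95% interval -0.19 to 0.28) and KO with PGE2 minus WT was -0.09 (-0.32 to 0.15). The dimmer probe read between 123.6 and 160.3 on all day 3 arrays and was called in none of the comparisons.

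Eef1a2 had its highest mean in WT cells with NS398. Its probe 1 read 976.8, 1073, 1010 and 685.1 in KO cells with PGE2, 1899, 2084, 1709 and 1948 in KO cells without it, 2307, 1955, 2120 and 2328 in WT cells with NS398, and 1602, 1331, 1344 and 1647 in WT cells without it. The PGE2 arrays lay below all others, and the KO and NS398 arrays overlapped above WT. PGE2 minus none was -1.05 ± 0.12 in KO cells on the log2 scale (limma adjusted p = 3.5e-05), and KO with PGE2 minus WT was -0.68 ± 0.12 (limma adjusted p = 0.01). The call against WT was lost after the subtraction (-0.76, adjusted p = 0.11), in a fit of these groups alone (-0.68, 0.11), with r as a term (-0.58, 0.065) and with the 1 PGE2 array not marked r (-0.46, 0.3). NS398 exceeded none by 0.56 ± 0.12 (limma adjusted p = 0.011, and 0.60 with 0.1 after the subtraction), while KO minus WT was 0.37 ± 0.12 (limma adjusted p = 0.1, and 0.035 without the arrays marked r). Probe 3 gave -0.47 for PGE2 (limma adjusted p = 0.00091), 0.40 for NS398 (0.0047, and 0.74 with 0.057 after the subtraction) and 0.18 for KO (0.22). Probe 2, with wide spread in WT cells (920.2 to 1670), was called in none of the comparisons, and gave -0.56 for PGE2 (limma adjusted p = 0.068). It passed without KO replicate 8 (-0.69, adjusted p = 0.045), with the 60th percentile filter (0.047), in a fit of only the groups compared (0.025) and with r as a term (-0.74, 0.015).

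**Figure D3:**
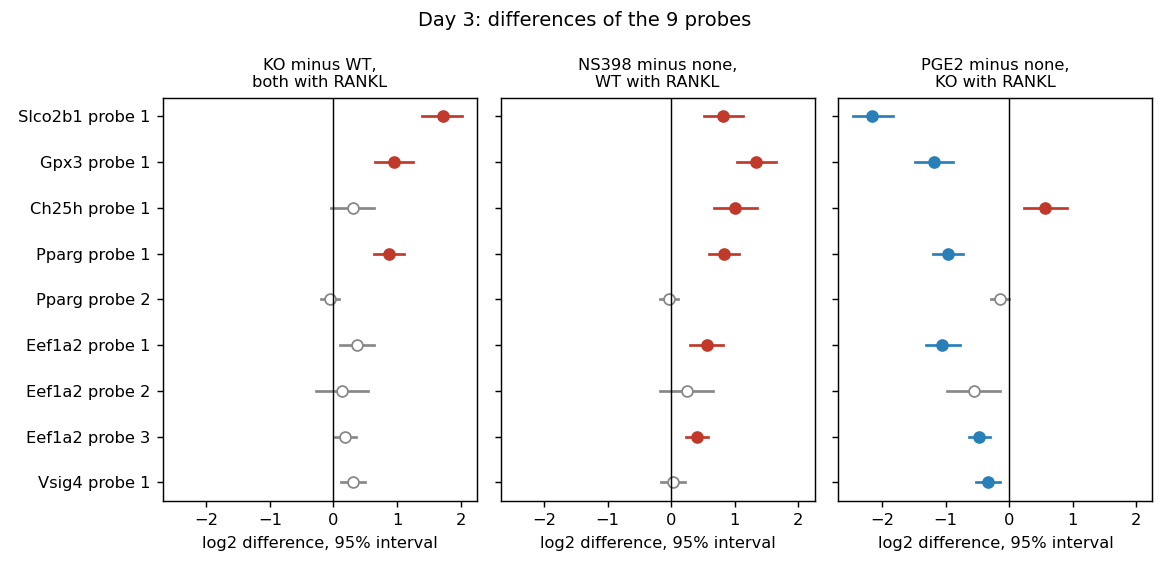
Log2 differences on day 3 with 95% intervals for the 9 probes, for KO minus WT, NS398 minus none in WT and PGE2 minus none in KO, all with RANKL. Filled points passed limma's adjusted p limit of 0.05, red for higher and blue for lower, and Ch25h alone lies to the right of 0 under PGE2.

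Against WT with RANKL, KO cells with PGE2 had 2 of the 9 probes called (Ch25h higher and Eef1a2 probe 1 lower), where 1.20% of all probes were called, 0.643% higher and 0.554% lower, and 3.10% of named probes. Between KO and NS398-treated WT cells 1 probe was called, that of Slco2b1, where 0.738% of all probes were called, 0.369% higher, and 1.91% of named probes. The other probes were not shown to be alike by these tests, and their intervals are the measure of what was resolved. The arrays marked r, a letter whose meaning the labels do not give, are 3 of 4 in the PGE2 group, 1 of 4 in KO, 1 of 4 in the NS398 group and 0 in WT. Without them the PGE2 group is 1 array, replicate 20, whose spread limma then takes from the other groups, so such values rest on that array.

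Across all day 1 arrays the 6 genes followed the order of the groups that chose them, and on day 3 they varied less uniformly. Over the 10 day 1 arrays, Pearson's r of log2 intensity between the brightest probes lay between 0.86 (Eef1a2 and Vsig4) and 1.00 (Slco2b1 and Pparg), over 3 far-apart groups. With each group's mean removed, the day 1 values ranged from -0.88 (Gpx3 and Vsig4) to 0.55 (Slco2b1 and Vsig4). Over the 16 day 3 arrays Gpx3 and Pparg had r = 0.91, Slco2b1 and Pparg 0.84, and Gpx3 and Eef1a2 0.82. Ch25h lay between -0.20 (with Vsig4) and 0.30 (with Gpx3). With each group's mean removed, the day 3 values ranged from -0.63 (Gpx3 and Vsig4) to 0.48 (Eef1a2 and Vsig4). The arrays of a day share one normalisation, and these values are descriptions. Probes of the same gene differed as well: for Eef1a2 probes 1 and 2 had r = 1.00 on day 1 and 0.60 on day 3, and for Pparg both probes had r = 0.84 on day 1 and 0.33 on day 3.

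**Figure D4:**
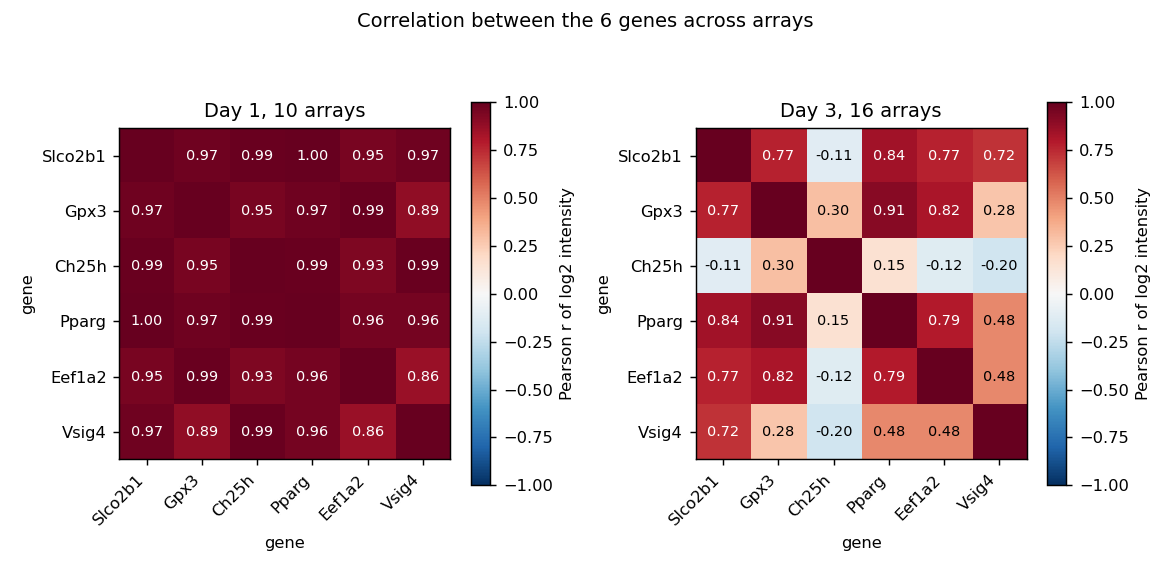
Pearson correlation of log2 intensity between the brightest probes of the 6 genes, over 10 arrays on day 1 (left) and 16 arrays on day 3 (right), on a colour scale from -1 to 1. Ch25h joins the other genes on day 1, at 0.93 or more, and stands apart on day 3, at 0.30 or less.

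Among 6911 named probes searched, the genes most like each member over the 16 day 3 arrays were found by Pearson's r, with r over the 10 day 1 arrays beside it. Slco2b1 was closest to Enpp1, an ectoenzyme that makes pyrophosphate (r = 0.939, day 1 0.98). Pacs2 (0.937, day 1 0.97) and St6gal1 (0.932, day 1 0.98) followed. Gpx3 was closest to the transcription cofactor gene Lmo2 (0.957, day 1 0.98). Rab7b (0.956, day 1 0.96) and the zinc finger factor gene Egr2 (0.949, day 1 0.98) followed. Pparg was closest to the RNA-editing enzyme gene Apobec1 (0.971, day 1 0.99) and the fatty acid desaturase gene Fads1 (0.968, day 1 0.93). Next came the gene listed as Acas2, with 0.959 on day 3 and -0.42 on day 1. Eef1a2 was closest to Mfge8, which encodes a bridging protein in the uptake of dying cells (0.964, day 1 1.00). Txnip (0.964, day 1 0.98) and Ehd4 (0.960, day 1 0.88) followed. Ch25h reached lower values, with Anp32e (0.858, day 1 0.91), Zfp94 (0.833, day 1 0.81) and Angpt2 (0.830, day 1 0.95). Vsig4 was closest to Gdnf on day 3 (0.895), which ran the other way on day 1 (-0.82). Fyco1 (0.881, day 1 0.45) and Ist1 (0.880, day 1 0.23) followed, with low values on day 1. The arrays share group structure and normalisation, and a high r between these genes is a description of that.

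Genes taken here as targets of PPARgamma were followed as a list of 18. Of these, 12 were named in the deposited tables, which list probes that differed, and were fitted. On day 1 in WT cells with RANKL, 11 of the 12 were lower and 1 was higher than without RANKL, with a median log2 difference of -1.15, against -0.099 over all named probes. In KO against WT cells with RANKL, 11 were higher and 1 lower, with a median of 1.13, against 0.095 over all named probes. Of all named probes, 75.8% were called for RANKL and 70.3% for KO, in either direction. Both comparisons use the same 3 WT arrays with RANKL, so one is no support for the other. Pparg itself was chosen on these arrays, and the day 1 counts are not read as a result about the list. Lpl, the lipoprotein lipase gene, was at 62924 ± 1784 in KO cells with RANKL, 17751 ± 792.1 in WT cells with RANKL and 69664 ± 919 in WT cells with M-CSF alone (SD, n = 3, 3 and 4). Ncoa4, the ferritin receptor gene, was the exception in both comparisons, at 0.42 for RANKL in WT cells (limma adjusted p = 0.0021) and -1.23 for KO (limma adjusted p = 9.5e-09). On day 3 the called shares of the list were near or below those of all named probes (16.2% for KO, 15.1% for NS398 and 33.0% for PGE2), so they are no result about the list. The calls were 2 higher in KO cells (Lpl by 0.64, limma adjusted p = 0.0084, and Plin2 by 0.75, adjusted p = 0.045), 1 higher with NS398 (Lpl by 0.88, adjusted p = 0.00067) and 4 lower with PGE2. Of the 4, Ncoa4 differed by -1.67 (limma adjusted p = 0.0023), Lpl by -1.01 (0.00013), Plin2 by -0.85 (0.014) and Ucp2 by -0.42 (0.0073).

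Other genes of resident macrophages were a list of 20 beside Vsig4 itself, with 14 named and fitted on day 1 and 13 on day 3. On day 1, 75.8% of all named probes were called for RANKL and 70.3% for KO. The day 1 counts are therefore not read as a result about the list. RANKL in WT cells lowered 9 and raised 2 on day 1, with Folr2, a folate receptor gene, at -3.10 ± 0.09 (limma adjusted p = 7.6e-17) and Marco, a scavenger receptor gene, at 3.25 ± 0.09 (limma adjusted p = 1.4e-16). In KO against WT cells with RANKL 6 were higher and 5 lower, led by the growth factor gene Gas6 at 2.19 and Marco at -3.63. In KO cells with RANKL against WT cells with M-CSF alone, 12 of the 14 were lower and 0 higher. There 31.8% of named probes were called in either direction, and the comparison mixes genotype with RANKL. On day 3, 6 of 13 were higher in KO (16.2% of named probes were called in either direction) and 3 with NS398 (15.1%). With PGE2 4 were lower and 2 higher (33.0%). The iron exporter gene Slc40a1 had the largest of these differences, at 1.51 ± 0.13 in KO (limma adjusted p = 2.1e-06), 1.13 ± 0.13 with NS398 (4.7e-05) and -2.26 ± 0.13 with PGE2 (1.8e-08). Marco was higher with PGE2 (limma adjusted p = 0.0012), with KO cells without PGE2 not above background.

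The families of the single members showed mixed directions. For RANKL on day 1, 75.8% of the 7230 named probes were called in either direction. The day 1 counts below stand beside that share and are not read as a result about the lists. Of 3 other named Slco transporter genes, 2 were higher and 0 lower with RANKL on day 1, of which Slco4a1 had the larger difference and was not above background without RANKL. Of 10 other named glutathione peroxidase and selenoprotein genes, 5 were higher and 3 lower, with Selenow highest at 1.38 (limma adjusted p = 1.3e-10) and Selenop, the gene of the plasma selenium carrier, at -3.40 (limma adjusted p = 6.6e-16) and at 2.78 in KO against WT (1e-13). On day 3 Selenop was 1.74 ± 0.46 higher in KO (limma adjusted p = 0.033) and differed by -2.21 ± 0.46 with PGE2 (0.0045). Of 10 named genes of the oxysterol and LXR axis, 6 were lower and 3 higher with RANKL on day 1, and Apoe, the apolipoprotein E gene, was lowest at -2.16 (limma adjusted p = 6.2e-11), while the desaturase gene Scd2 was highest at 0.75 (5.3e-05). On day 3 this axis gave 1 call in KO, 1 with NS398 and 0 with PGE2 by limma. Of all named probes, 16.2%, 15.1% and 33.0% were called in these comparisons, in that order. Of 5 other named translation elongation genes, 2 were lower and 1 higher with RANKL, and Eef2k, the lowest of them, was not above background with RANKL. Tufm, the mitochondrial elongation factor gene, was the higher one, at 0.25 (limma adjusted p = 0.046). Of 13 named complement genes other than Vsig4, 6 were lower and 6 higher. C1qb, of the first complement component, was lowest at -2.40 (limma adjusted p = 7.5e-14), and Cfb, complement factor B, was highest at 6.51 (6.5e-19). Of 5 named repressors of osteoclast formation, 3 were lower and 1 higher. The largest difference was that of Nfkbia, which encodes an inhibitor of NF-kappaB, at 1.86 (limma adjusted p = 4e-12), and Id2 was lowest at -1.46 (2e-10).

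The cultures read as macrophages on day 1 and as cells on the osteoclast path under RANKL. Of 11 macrophage identity genes 8 were named and all 8 were above background in every day 1 group. Their summed intensities were 139907 to 146573 in KO cells with RANKL and 133585 to 135939 in WT cells with RANKL. In WT cells with M-CSF alone they were 135536 to 147925. The sums cover opposite directions of single genes. With RANKL in WT cells 5 of the 8 were called higher and 2 lower. In KO against WT cells with RANKL 2 were called higher and 4 lower. Of all named probes, 75.8% and 70.3% were called in these comparisons, in that order. Ctsk, the osteoclast protease gene, was at 28429 ± 6464 in KO cells with RANKL, 43468 ± 1409 in WT cells with RANKL and 656.7 ± 33.94 in WT cells with M-CSF alone (SD, n = 3, 3 and 4). Of 12 named osteoclast genes, Ctsk among them, 8 were called higher and 0 lower with RANKL in WT cells. In KO against WT cells with RANKL, 1 of them was higher and 6 were lower. The same shares of all named probes apply. Some markers of other cells moved with the members on day 1, and their part in the results was not tested. Of 10 named neutrophil and granulocyte precursor genes, all were above background in KO cells with RANKL and in WT cells with M-CSF alone, while Elane, Ltf, Mpo and Prtn3 were not in WT cells with RANKL. The sum of the 10 ran differently, at 43341 to 58729 in KO cells with RANKL, 84762 to 86353 in WT cells with RANKL and 11721 to 12460 in WT cells with M-CSF alone. S100a8, the largest part of it, averaged 26872 in KO cells with RANKL, 63227 in WT cells with RANKL and 6105 in WT cells with M-CSF alone. Of the 10, 4 were called higher and 5 lower for RANKL in WT cells (75.8% of named probes called). For KO against WT with RANKL, 7 were higher and 3 lower (70.3%). For KO with RANKL against WT with M-CSF alone, 6 were higher and 0 lower (31.8%). Il7r, on the T and NK cell list with 3 of 13 genes named, averaged 12316 in KO cells with RANKL, 3041 in WT cells with RANKL and 9692 in WT cells with M-CSF alone. Cd3g, a T cell receptor component on that list, was not above background in KO cells with RANKL or in WT cells with M-CSF alone. Blnk, the 1 named gene of the 10 on the B cell list, averaged 1729 in KO cells with RANKL, 855.9 in WT cells with RANKL and 2688 in WT cells with M-CSF alone. The 7 named osteoblast and stromal genes summed to 4354 to 4795 in KO cells with RANKL, 2876 to 3067 in WT cells with RANKL and 1994 to 2093 in WT cells with M-CSF alone. Of the 7, 5 were higher in KO than in WT cells with RANKL, among them Col6a1 at 1.85 (limma adjusted p = 7e-12), and 2 were lower, among them Dcn at -1.04 (1.1e-07). The T and NK cell list summed to 11804 to 14067 in KO cells with RANKL, 3485 to 3885 in WT cells with RANKL and 8470 to 11782 in WT cells with M-CSF alone. Il7r was the largest part of that sum. In KO against WT cells with RANKL, Il7r was higher and 2 of the 3 named genes were lower. These were Cd3g at -0.52 (limma adjusted p = 0.00016) and Lck at -0.38 (0.0038). For RANKL in WT cells 2 of the 3 were higher and 1 lower.

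On day 3 Il7r averaged 971.1 in KO cells with PGE2 and 2262 in KO cells without it (limma adjusted p = 0.00094). Blnk averaged 403.6 in KO cells with PGE2 and 849.5 in KO cells without it (limma adjusted p = 0.00015). The 7 named osteoblast and stromal genes summed to 1707 to 1963 in KO cells with PGE2, 1053 to 1155 in KO cells without it, 991.4 to 1044 in WT cells with NS398 and 1236 to 1619 in WT cells without it, opposite to 5 of the 6 members under PGE2. With a detection p-value given for 4 of the 7, 4 were above background in KO cells with PGE2, 3 in KO cells without it, 0 in WT cells with NS398 and 4 in WT cells without it. The neutrophil list summed to 4982 to 9094 in KO cells with PGE2, 1575 to 1825 in KO cells without it, 1669 to 2374 in WT cells with NS398 and 2799 to 4095 in WT cells without it. None of the adipocyte markers was named in the deposited tables, so their levels were not followed. The part of these cells in the members' values was not tested. Within groups the arrays of day 1 correlated at 0.9931 to 0.9951 over all probes and those of day 3 at 0.9723 to 0.9948.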

How the data were processed

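Total RNA was read on 26 Illumina bead arrays, 10 on day 1 and 16 on day 3. As deposited, each intensity is linear and had been made with GenomeStudio (version not given), per the submitters' processing notes. From the values, arrays of a day share nearly one distribution, as after quantile normalisation, with no background subtracted (median 227.88 on day 1 and 150.47 on day 3), so the days were tested apart and folds of dim probes are compressed. The authors' 5 deposited comparison tables hold group means, their detection p-values and the ratio of those means, per the file headers. Gene names come from these tables alone, which list probes that differed, so named probes are called more often than others.

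Log2 intensities were fitted with limma 3.58.1 in R 4.3.3 (lmFit and eBayes, a mean per group, all arrays of a day), on probes above their array's 40th percentile in at least as many arrays as the smallest group (17211 on day 1 and 18961 on day 3). Calls used a Benjamini-Hochberg adjusted p under 0.05 over all fitted probes, and the fit was tested on simulated data. Alternatives were an added 50, cyclic loess, quantile normalisation, a 60th percentile filter or none, an intensity trend, only the groups compared, the mean of a gene's probes, each array left out, the letter r left out or as a term, and a subtracted 10th percentile with values under 10 raised to 10, which was chosen after seeing the data. The members and the gene lists were chosen with earlier results of these data known. Named were all member probes, for each member the 3 most alike genes on day 3, the called genes with the largest rise or fall in a list, and Ctsk; other list and marker genes were named after their values were seen. The precision is limited by 3 or 4 arrays a group.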

Additional observations from a re-analysis of the deposited data

Results flagged for a closer look

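Over the 9 probes, 45 groups of 4 arrays were looked at for a value far from the others, and 3 were found, where chance gives about 1 in 20. Slco2b1 in KO cells with RANKL on day 3 had 1 low array, replicate 12r at 810.2, while the other arrays read 1057 to 1061. The brighter Pparg probe in the same group had 1 high array, replicate 7 at 342.9, against 304.1 to 310.5 on the others. Vsig4 in WT cells with M-CSF alone on day 1 had 1 high array, replicate 6 at 3871, against 3106 to 3171 on the others. The calls of Slco2b1 and of this Pparg probe against WT and under PGE2 were made with each of these arrays left out.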

How the results depend on the processing

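The calls of Slco2b1, Gpx3 and the brighter Pparg probe in the day 3 comparisons for KO against WT, NS398 and PGE2 were made under every alternative run, of which the fit without the arrays marked r holds 1 PGE2 array. No member difference changed sign among called values. Over all probes, subtracting the 10th percentile gave 718 calls for KO against WT on day 3 (1208 without it), 719 for NS398 (1126), 93 for KO with PGE2 against WT (227) and 79 for KO against WT with NS398 (140). The last 2 then held 1 and 0 member calls (2 and 1 without it). A fit of only the groups compared gave 96 calls and 1 member call for KO with PGE2 against WT. Without the arrays marked r the PGE2 group is 1 array, assumed to vary like the other groups, and such counts say little about stability: PGE2 gave 587 calls (2561 with them), KO with PGE2 against WT 37 with 0 member calls by limma, and KO against WT with NS398 92. With the letter r as a term, KO with PGE2 against WT gave 370 calls and 0 member calls. For KO against WT with NS398, cyclic loess, the 60th percentile filter, the intensity trend and the r term each gave 2 member calls, the added one being Ch25h. With single arrays left out, PGE2 gave 1634 (without KO replicate 8) to 2700 calls and 5 to 7 member calls, and KO against WT with NS398 gave 87 (without NS398 replicate 18) to 158 and 1 to 2 member calls. The cause of these shifts was not tested beyond the fewer arrays or groups in the fit. No paired analysis was possible because the groups compared within an experiment share no replicate numbers. Dim probes, at 3 or 4 arrays a group, limit what small differences can be resolved.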
